A study of Mus musculus with 6 samples.

Results

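Interferon-stimulated genes are genes whose transcription is raised by interferons, and 40 of them were followed here in long-term haematopoietic stem cells (LT-HSCs) of Dcaf8 knockout and wild-type mice. The 40 genes were chosen by name as a listed set. No measured value entered the choice of genes, but the list was drawn up with earlier results of these data known. All 40 were found by symbol among the 55357 gene identifiers of the count table, of which 21137 had at least 1 count. A threshold on the measured mean level in wild-type cells then divided them into 31 higher-level and 9 lower-level members. It was set at 20 CPM (counts scaled to equal library size, here also corrected for library composition). The study sorted LT-HSCs from the bone marrow of 3 Dcaf8 knockout mice and 3 wild-type mice, described as young, to ask which transcripts accompany the functional defects of knockout stem cells. The sort kept Lin- Sca-1+ c-Kit+ CD150+ CD48- cells, and RNA of 50 cells per library was amplified as full-length cDNA, tagmented and sequenced. No other allele or treatment is named for either genotype, and the strain, exact age, sex and knockout design of the mice are unstated in the labels. Each library is a bulk measurement of sorted cells, so fewer expressing cells and less RNA per cell cannot be told apart.

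Type I interferons bind the IFNAR1-IFNAR2 receptor, and the receptor-bound kinases JAK1 and TYK2 phosphorylate STAT proteins, which join IRF9 to form the ISGF3 complex. ISGF3 binds the interferon-stimulated response element (ISRE) in promoters, while interferon gamma signalling acts through a different element, the gamma-activated site (GAS). Stem cells are known to keep a basal, or tonic, expression of part of this programme without infection, and interferon exposure is known to bring dormant haematopoietic stem cells into cycle. Dcaf8 encodes a substrate receptor of the CUL4-DDB1 ubiquitin ligase.

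Promoter sequence was examined because the genes were chosen by name and not by sequence. As ISGF3 acts through the ISRE, a raised share of it in a list of interferon-stimulated genes was to be anticipated. Windows from 250 bases before to 50 bases after each annotated start were taken from RefSeq for build GRCm38.p6, in which 30 of the 40 members had an entry. The ISRE core was searched as GAAA, any 2 bases and GAAA again, on either strand, and adjacent copies may overlap. It occurred in 17 of the 30 member promoters (56.7%) against 3.99% of the 27025 genes in the same table. The GAS core, TTCNNNGAA with N any base, which reads the same on both strands, occurred in 10 of the 30 (33.3%) against 9.55%. Stretches of 7 member promoters, each within the region upstream of the start, are shown 5′ to 3′ in the direction of the gene with every ISRE match in capitals.
Isg15: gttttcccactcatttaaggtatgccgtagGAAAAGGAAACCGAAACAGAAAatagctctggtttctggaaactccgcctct
Ifit1: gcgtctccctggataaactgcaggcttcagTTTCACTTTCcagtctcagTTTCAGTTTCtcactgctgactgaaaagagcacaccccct
Ifit3: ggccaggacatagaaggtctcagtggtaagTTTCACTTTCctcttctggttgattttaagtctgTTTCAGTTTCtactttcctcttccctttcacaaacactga
Oas1a: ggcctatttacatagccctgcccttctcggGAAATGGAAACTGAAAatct
Oas3: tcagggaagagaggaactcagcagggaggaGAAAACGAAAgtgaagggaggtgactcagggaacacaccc
Bst2: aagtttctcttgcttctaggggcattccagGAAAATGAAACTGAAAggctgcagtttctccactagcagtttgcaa
Stat2: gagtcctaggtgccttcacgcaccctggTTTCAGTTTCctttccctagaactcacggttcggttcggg
Isg15 lies at chr4:156200845-156200926 on the minus strand and carried 3 overlapping matches in tandem, which together span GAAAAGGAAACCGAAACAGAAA. Ifit1 at chr19:34640755-34640843 (plus strand) and Ifit3 at chr19:34583343-34583446 (plus strand) each carried 2 separate matches in the reverse orientation, read as TTTC, 2 bases and TTTC. Oas1a at chr5:120907526-120907575 (minus strand) and Bst2 at chr8:71537557-71537632 (minus strand) each carried 2 overlapping matches. Oas3 at chr5:120777695-120777764 (minus strand) and Stat2 at chr10:128270248-128270315 (plus strand) carried 1 each. The match is a description of letters in the window and says nothing of binding in these cells. Among the members with a promoter entry, 13 of 26 higher-level and 4 of 4 lower-level genes held the ISRE core.

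The libraries held 14461864 to 22386387 counts and 15244 to 17015 detected genes, so that 3 counts, taken as the upper limit that a count of 0 allows, correspond to 0.134 to 0.207 CPM (counting error only). Dcaf8 itself stood at 290.5, 293 and 204 CPM in the wild-type libraries and 74.3, 38.1 and 45.2 CPM in the knockout libraries, a log2 fold change of -2.28 ± 0.28 (SE). Its 2-sided exact permutation p was 0.1, the smallest that 3 against 3 allows, its edgeR adjusted p was 0.739 and its DESeq2 adjusted p was 1.83e-09. The 10 LT-HSC marker genes summed to 2159 to 2656 CPM and none was at 0 in any library. Neutrophil markers summed to 6228 CPM in wild-type replicate 2 and to at most 29.4 CPM in every other library. Knockout replicate 3 held 50.7 CPM of the female transcript Xist, against at most 1.24 CPM elsewhere, and no count of the Y-linked Ddx3y. All 6 plasmacytoid dendritic cell markers (Siglech, Ccr9, Cox6a2, Klk1, Spib and Cd209d), which mark a cell type known for high interferon production, were at 0 counts in every library. The direction count and median over the members are given with and without wild-type replicate 2 and knockout replicate 3, as are some single genes whose estimate moved by over 1.5 times.

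Transcripts of 36 of the 40 members were counted in all 6 libraries, and 24 members lay above 20 CPM in every library. Ifitm1, Ifitm3 and Lgals3bp together held 41.6% of the summed wild-type CPM of the 40 genes. A total of 10 members averaged above 100 CPM in wild-type cells, whereas Zbp1, Ifit3, Mx1, Isg15, Parp14 and Mx2 averaged 6.57 CPM or less. Per kilobase of exon, which allows genes of different length to be compared, the wild-type order began with Ifitm3 (801 CPM per kb), Ifitm1 (663), Lgals3bp (183.5), Bst2 (75.3), Irgm1 (54.9), Igtp (53.4) and Ifi35 (52.2). Isg15, a short gene, stood at 5.11 CPM per kb and Parp14, a long one, at 0.249 CPM per kb. The members closest to the threshold were Oasl1, just inside at a wild-type mean of 20.3 CPM, and Oas3, just outside at 18.1 CPM. These levels are TMM-normalised CPM, that is, CPM corrected for library composition, as are all levels below unless stated.

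**Figure D1:**
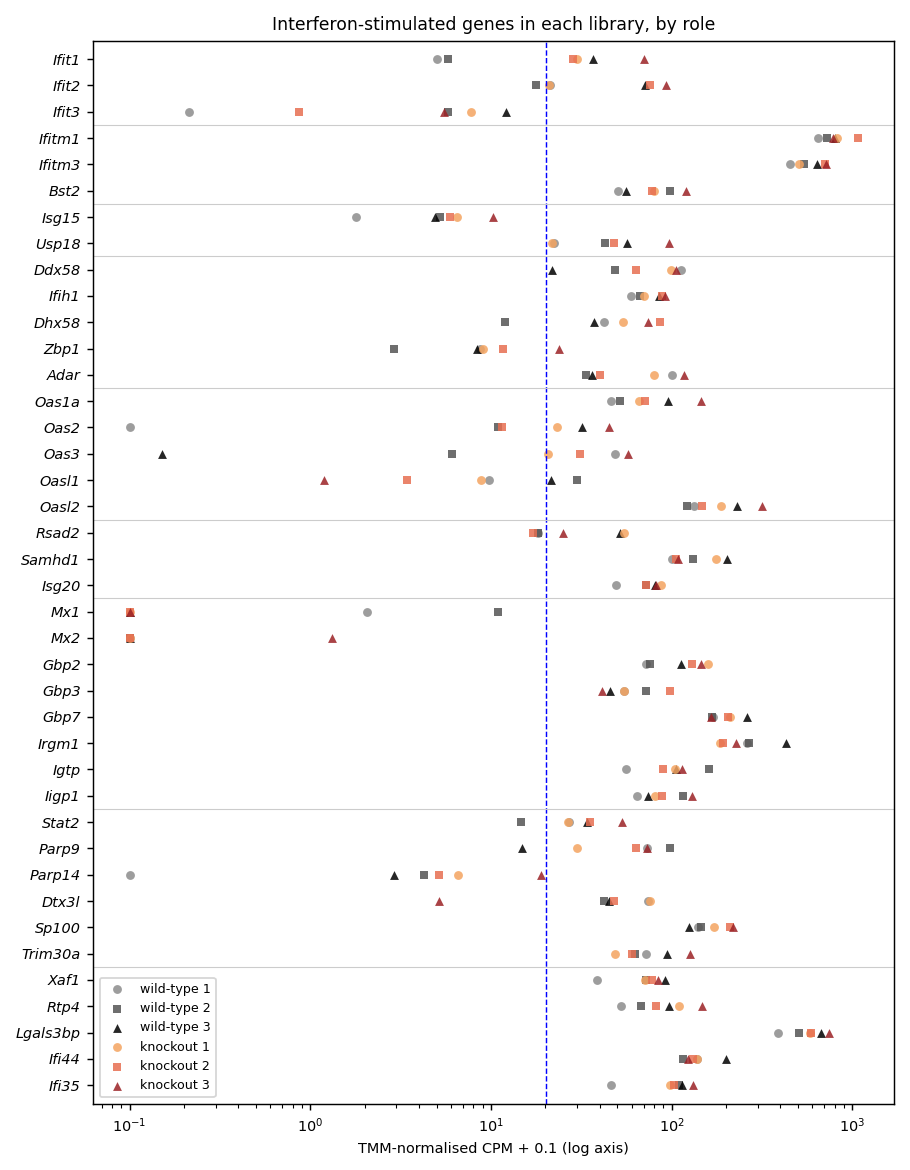
TMM-normalised CPM plus 0.1 on a log axis for each of the 40 genes in each of the 6 libraries, grouped by role from top to bottom, with genes at 0 CPM drawn at 0.1. The dashed line marks 20 CPM. Ifitm1, Ifitm3 and Lgals3bp lie furthest right in every library, and Ifit3, Oas2, Oas3 and Parp14 spread from near 0 CPM to above 10 CPM.

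The filter on low counts left 38 members for the test between genotypes, all but Mx1 and Mx2, among 14592 genes. No member passed an adjusted p of 0.05 in edgeR's quasi-likelihood test, where adjusted p over the members ranged from 0.744 to 0.998, and no gene of all tested passed either (0.0%). DESeq2 called 154 of 16490 genes (0.934%) and limma-voom called 0 of 14592 (0.0%); neither called a member, and the smallest DESeq2 adjusted p among members was 0.0605, for Sp100. The fitted value was higher in knockout for 29 of the 38 members (76.3%) against 50.9% of all genes tested, and lower for 9. The median log2 fold change, knockout minus wild-type, was 0.29 over the members and 0.01 over all genes tested. Each fold change of a single gene is given ± SE, and its levels are given in the order of replicates 1 to 3.

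At an unadjusted edgeR p under 0.05 there were 6 members (15.8%) against 5.82% of all genes tested, of which 849 met it. Of these 6, Sp100, Gbp2, Dhx58 and Parp14 had the higher value in knockout (background 3.47%), and Oasl1 and Irgm1 the lower (background 2.35%). The same count was 6 members in DESeq2 (background 5.68%) and 6 in limma-voom (background 5.31%). Sp100, Gbp2, Dhx58, Oasl1 and Irgm1 were among the 6 in each tool, and the other was Parp14 in edgeR, Mx1 in DESeq2 and Ifit1 in limma-voom. The unadjusted p of Parp14 was 0.167 in DESeq2 and 0.134 in limma-voom. The 3 knockout values lay above all 3 wild-type values for 6 members (Isg15, Dhx58, Zbp1, Gbp2, Parp14 and Sp100; background 5.91%) and below them for 2 (Oasl1 and Irgm1; background 4.43%). In all, 21.1% of members did not overlap against 10.3% of all genes tested.

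The size of the median depended on which libraries entered. Leaving out wild-type replicate 1 brought it to 0.15, leaving out wild-type replicate 3 to 0.47, and leaving out knockout replicate 3 to 0.17. With wild-type replicate 2 and knockout replicate 3 both left out, 25 of 38 members had the higher value in knockout and the median was 0.14. The higher-level members had the higher value in knockout for 23 of 31 genes (all genes above 20 CPM in wild-type: 46.7%), with a median log2 fold change of 0.26. Of the 9 lower-level members 7 were tested, 6 with the higher value (all genes at or below 20 CPM: 56.3%), and their median was 1.10, where all such genes had 0.12. The division used the wild-type level, which also enters the fold change. Divided by the mean over all 6 libraries instead, 33 members lay above 20 CPM, with 26 higher and a median of 0.29, and 5 lay at or below it, with 3 higher and a median of 0.95.

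Single members depended on the same libraries. With both wild-type replicate 2 and knockout replicate 3 left out, the log2 fold change was 0.45 for Ifit1 (1.47 with all libraries), 0.24 for Zbp1 (1.22), 0.79 for Dhx58 (1.23), 0.38 for Rtp4 (0.67), 0.33 for Ddx58 (0.60) and 0.14 for Lgals3bp (0.29), and -1.27 for Oasl1 (-2.19). Those of Ifit2, Oas1a, Oasl2, Stat2, Usp18 and Adar, above 0 with all libraries, came to -0.10, -0.071, -0.11, -0.019, -0.30 and -0.11. Of the 8 members without overlap between genotypes, Isg15 at 0.88 (0.95), Gbp2 at 0.65 (0.74), Parp14 at 2.01 (2.14), Sp100 at 0.51 (0.55) and Irgm1 at -0.88 (-0.66) lay within 1.5 times of the value from all libraries, and Dhx58, Zbp1 and Oasl1 did not.

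**Figure D2:**
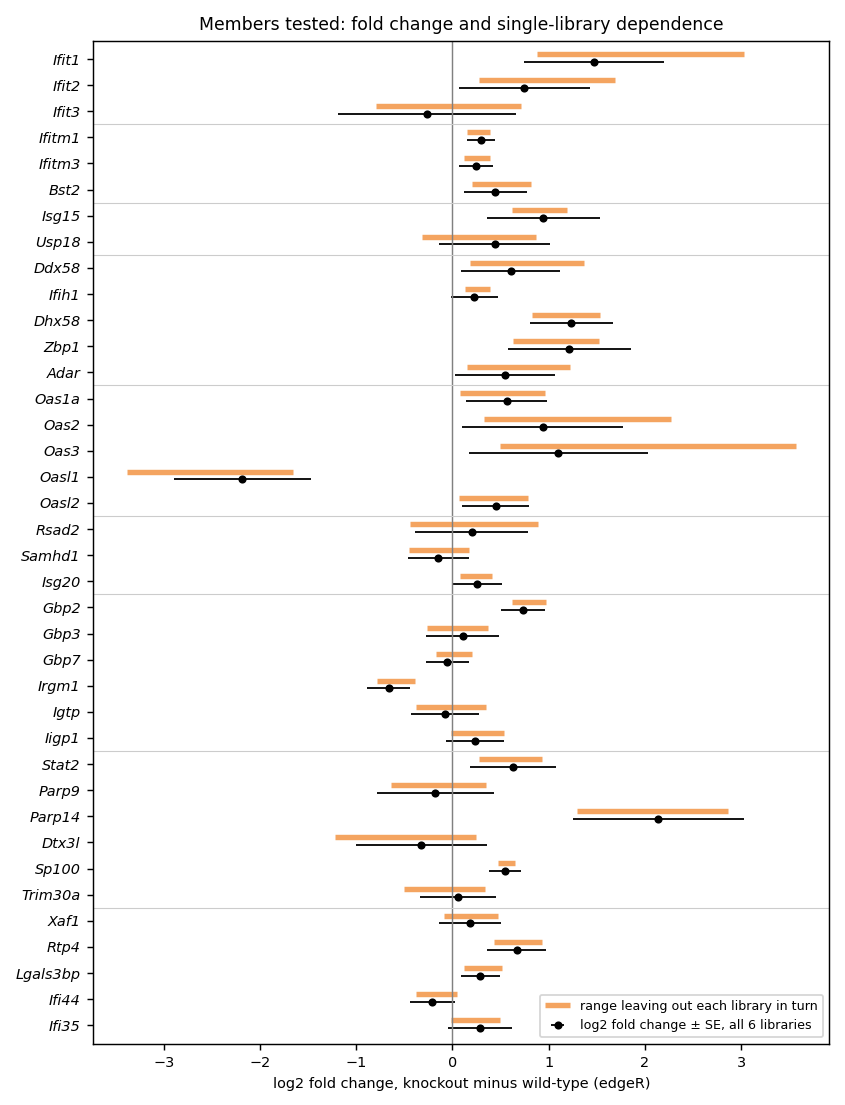
Log2 fold change (knockout minus wild-type, edgeR) of the 38 members tested, grouped by role. Black points and lines are the estimate ± SE from all 6 libraries and orange bars span the estimates when each library is left out in turn. Dhx58, Gbp2, Parp14 and Sp100 stay above 0 and Oasl1 and Irgm1 stay below 0 whichever library is left out, while Rsad2, Ifit3 and Usp18 cross it.

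Member levels also differed between libraries of the same genotype, and many members shared the order of libraries. Wild-type replicate 1 was the lowest of the 3 wild-type libraries for 23 of the 38 members tested (60.5%, against 33.8% of all genes) and wild-type replicate 3 the highest for 23 (60.5%, against 33.2%). Among knockout libraries, replicate 3 was the highest for 26 members (68.4%, against 33.4%). Over all 6 libraries, knockout replicate 3 was the highest for 21 members (55.3%, against 14.6%) and wild-type replicate 1 the lowest for 19 (50.0%, against 19.6%). In 49 further interferon-stimulated genes tested, wild-type replicate 1 was lowest within its genotype for 40.8%, wild-type replicate 3 highest for 42.9% and knockout replicate 3 highest for 38.8%.

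Between single libraries, the median log2 difference of the 38 members was 0.69 from wild-type replicate 1 to wild-type replicate 3, with 29 members higher in the latter. The other steps within wild-type were smaller, 0.19 from replicate 1 to replicate 2 and 0.38 from replicate 2 to replicate 3. The median genotype difference of 0.29 was fitted on 3 libraries against 3. It is therefore not the same measure as a step between single libraries. From wild-type replicate 1 the median difference was 0.34, 0.59 and 0.87 to knockout replicates 1, 2 and 3. From wild-type replicate 2 it was 0.29, 0.23 and 0.51, in the same order. From wild-type replicate 3 it was -0.11 to knockout replicate 1, -0.04 to knockout replicate 2 and 0.41 to knockout replicate 3. Knockout replicates 1 and 2 differed by a median of -0.02. On this measure wild-type replicate 3 lay closer to knockout replicates 1 and 2 than to wild-type replicate 1.

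**Figure D3:**
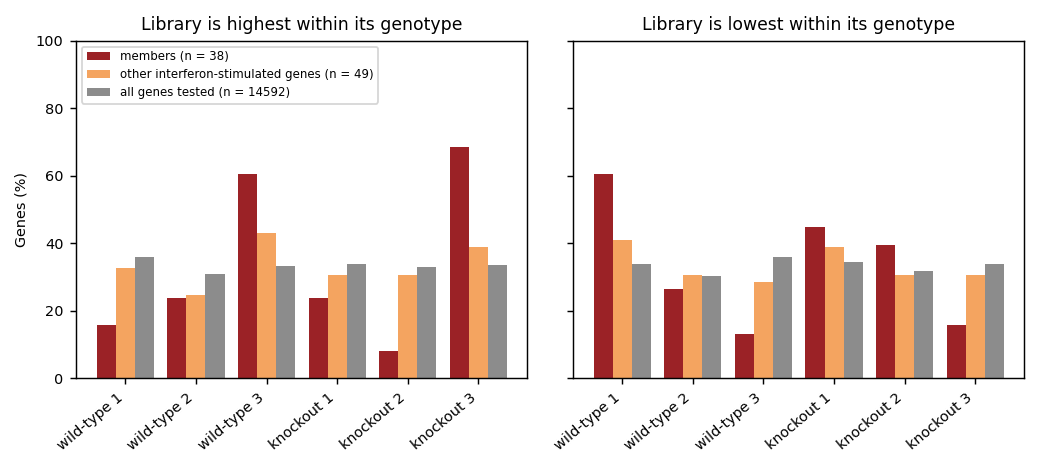
Share of genes (%) for which each library is the highest (left) or the lowest (right) of the 3 libraries of its genotype, for the 38 members, 49 other interferon-stimulated genes and all 14592 genes tested. The bars of the members stand at 60.5% for wild-type replicate 3 and 68.4% for knockout replicate 3 on the left, and at 60.5% for wild-type replicate 1 on the right, where all genes tested give 33.2%, 33.4% and 33.8%.

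Summed over all 40 genes, the members held 3652, 4152 and 5100.5 CPM in the wild-type libraries and 4591, 4972 and 5634 CPM in the knockout libraries. The means were 4301 ± 736 CPM and 5066 ± 528 CPM (SD, n = 3), and the groups overlapped. The sum of the 9 lower-level members was 65.6, 51.1 and 96.5 CPM in the wild-type libraries and 103, 94.0 and 231 CPM in the knockout libraries, with knockout replicate 3 apart from the rest. The mean log2 CPM of the 38 tested members was 5.13, 5.61 and 5.83 in the wild-type libraries and 5.96, 5.88 and 6.28 in the knockout libraries. On that scale the groups did not overlap, with wild-type replicate 3 just under knockout replicate 2. Megakaryocyte markers, as CPM of the total count, summed to 583, 814 and 927 in the wild-type libraries and 698, 619.8 and 1086 in the knockout libraries. Their sum too was lowest in wild-type replicate 1 and highest in knockout replicate 3. Of the single markers only Itga2b, the most abundant, had both extremes there (372 and 641 CPM). Pf4 was lowest in knockout replicate 2, Gp9 was highest in knockout replicate 1, Ppbp in wild-type replicate 3 and Gp1bb in wild-type replicate 2. One of those 6 markers, Gp6, was at 0 in every library, and their part in the result was not tested. B cell, T cell and NK cell markers were at or near 0 apart from Cd79b, Lck and Klrb1c. Macrophage and monocyte markers summed to 421 to 947 CPM of the total count, highest in wild-type replicate 2. Most of that sum was Lyz2 (388 to 879 CPM), and Cd68 reached 69.8 CPM in knockout replicate 2. Erythroid markers summed to 66.2 to 171 CPM, and stroma and endothelium markers to at most 11.6 CPM. The part of these markers in the result was not tested.

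**Figure D4:**
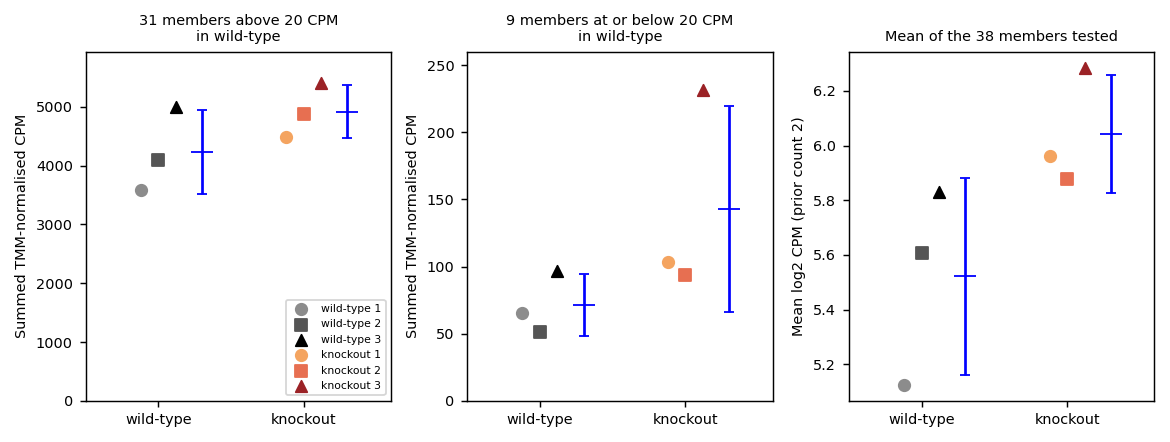
Left and middle, summed TMM-normalised CPM of the 31 higher-level and 9 lower-level members in each library; right, mean log2 CPM (prior count 2) of the 38 tested members, on an axis that does not start at 0. Blue bars are the mean ± SD of 3 libraries. The left and middle panels overlap between genotypes, and the right panel separates wild-type replicate 3 (5.83) from knockout replicate 2 (5.88) only narrowly.

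Within the higher-level members the coefficient of variation had a median of 36.4% in wild-type and 26.0% in knockout, where all genes tested above 20 CPM gave 25.1% and 20.2%. For the lower-level members tested it was 100.3% and 55.6%, against 71.7% and 50.6%. Some low values came from 0 or very few counts at a gene counted well elsewhere. Oas2 had 0 counts in wild-type replicate 1 and 165 to 995 in the knockout libraries, Oas3 had 1 count in wild-type replicate 3 and 857 in wild-type replicate 1, and Parp14 had 0 counts in wild-type replicate 1.

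The IFIT proteins bind foreign or unmethylated-cap RNA and block its translation, and 2 of the 3 genes had the higher value in knockout, none with a passed test. Ifit1 stood at 4.95, 5.72 and 36.5 CPM in the wild-type libraries and 29.98, 28.2 and 70.3 CPM in the knockout libraries. Its means were 15.7 ± 18.0 CPM in wild-type and 42.8 ± 23.8 CPM in knockout (SD, n = 3), with a log2 fold change of 1.47 ± 0.73 (edgeR adjusted p = 0.874), and the groups overlapped because wild-type replicate 3 lay above knockout replicates 1 and 2. Without wild-type replicate 3 its log2 fold change was 3.03, and without knockout replicate 3 it was 0.88. Ifit2 stood at 21.1, 17.6 and 71.2 CPM in the wild-type libraries and 20.8, 75.5 and 93.0 CPM in the knockout libraries. Wild-type replicate 3 and knockout replicates 2 and 3 lay at 71.2 CPM or above and the other libraries at 21.1 CPM or below, so that both levels occurred in both genotypes (log2 fold change 0.75 ± 0.68, edgeR adjusted p = 0.963). Ifit3 stood at 0.113, 5.72 and 12.1 CPM in the wild-type libraries and 7.67, 0.766 and 5.38 CPM in the knockout libraries, with a log2 fold change of -0.26 ± 0.93 (edgeR adjusted p = 0.994). It was near 0 in 1 library of each genotype, and reads may be shared with its close copy Ifit3b.

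Ifitm1, Ifitm3 and Bst2 encode membrane proteins that restrict virus entry or release, and all 3 had the higher value in knockout without passing the test. Ifitm1, the most abundant member by CPM, stood at 645, 724 and 807 CPM in the wild-type libraries and 825, 1076 and 782 CPM in the knockout libraries. Its range over all 6 libraries was 1.67-fold, among the narrowest of the members, with a log2 fold change of 0.30 ± 0.15 (edgeR adjusted p = 0.874). Ifitm3 stood at 449.6, 543 and 638 CPM in the wild-type libraries and 509, 708 and 719 CPM in the knockout libraries, with a log2 fold change of 0.24 ± 0.18 (edgeR adjusted p = 0.945). Knockout replicate 1 lay below wild-type replicates 2 and 3, so the groups overlapped. Bst2, or tetherin, which holds budding virions at the cell surface, stood at 50.2, 97.7 and 56.0 CPM in the wild-type libraries and 79.7, 77.4 and 120.2 CPM in the knockout libraries (log2 fold change 0.45 ± 0.33, edgeR adjusted p = 0.944). Its highest wild-type value was in the library with the neutrophil markers, without which the log2 fold change was 0.81, and without knockout replicate 3 it was 0.20.

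Isg15 encodes the ubiquitin-like modifier that is conjugated to newly made proteins, and Usp18 the protease that removes it and also damps receptor signalling. Isg15 stood at 1.69, 5.09 and 4.82 CPM in the wild-type libraries and 6.36, 5.85 and 10.1 CPM in the knockout libraries. All 3 knockout libraries lay above all 3 wild-type libraries, although the nearest pair were 5.09 and 5.85 CPM, and the log2 fold change was 0.95 ± 0.58 (edgeR adjusted p = 0.918). Its promoter window held 3 ISRE matches, and it was one of the least abundant members. Usp18 stood at 22.3, 42.8 and 56.7 CPM in the wild-type libraries and 21.6, 48.0 and 96.3 CPM in the knockout libraries (log2 fold change 0.44 ± 0.58, edgeR adjusted p = 0.971), with overlapping groups. Its estimate was -0.32 without knockout replicate 3, which held its highest value.

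The 4 nucleic acid sensors and the RNA editor Adar all had the higher value in knockout, with a median log2 fold change of 0.60. Dhx58 encodes LGP2, a helicase without signalling domains that tunes RIG-I and MDA5, and stood at 42.1, 11.9 and 37.0 CPM in the wild-type libraries and 54.0, 86.4 and 74.0 CPM in the knockout libraries. The 3 knockout libraries were all above the highest wild-type library, the means were 30.3 ± 16.2 CPM in wild-type and 71.5 ± 16.3 CPM in knockout (SD, n = 3) and the log2 fold change was 1.23 ± 0.43 (edgeR adjusted p = 0.789). It was 0.83 to 1.53 when single libraries were left out, lowest without wild-type replicate 2. An annotated gene, Dhx58os, overlaps it on the opposite strand, and without a stated strand setting reads of the pair cannot be told apart. In all, exons of 13 members overlap another annotated gene, among them also Oasl1, Gbp2, Parp14, Sp100 and Adar.

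Ddx58, which encodes the RNA sensor RIG-I, stood at 113, 48.6 and 21.6 CPM in the wild-type libraries and 98.7, 63.3 and 106 CPM in the knockout libraries (log2 fold change 0.60 ± 0.51, edgeR adjusted p = 0.963). It went against most members, being highest in wild-type replicate 1 and lowest in wild-type replicate 3, and its estimate was 1.36 without the former and 0.19 without the latter. Ifih1, which encodes MDA5, a sensor of long double-stranded RNA, stood at 59.8, 66.9 and 84.99 CPM in the wild-type libraries and 70.0, 88.3 and 91.7 CPM in the knockout libraries. Its 1.53-fold range over 6 libraries was the narrowest among the sensors (log2 fold change 0.23 ± 0.24, edgeR adjusted p = 0.969). Zbp1, a sensor of left-handed nucleic acid that can start necroptosis, stood at 8.61, 2.81 and 8.27 CPM in the wild-type libraries and 8.94, 11.6 and 23.6 CPM in the knockout libraries. Its groups did not overlap, but the nearest pair, 8.61 and 8.94 CPM, almost touched, and the log2 fold change of 1.22 ± 0.64 (edgeR adjusted p = 0.881) was 0.63 without knockout replicate 3. Adar, which edits adenosine to inosine in double-stranded RNA, ranged from 33.7 to 101 CPM in wild-type and from 39.8 to 116 CPM in knockout, with overlapping groups.

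The OAS enzymes make 2′-5′-linked oligoadenylates that activate RNase L, and the related Oasl1 lacks that activity. In this family 4 of 5 had the higher value in knockout and 1, Oasl1, the lower. Those 4 depended on wild-type replicate 2 and knockout replicate 3. With both left out, the log2 fold change was 0.14 for Oas2, 0.11 for Oas3, -0.071 for Oas1a and -0.11 for Oasl2. Oasl1, reported as a translational repressor of Irf7, stood at 9.68, 29.7 and 21.5 CPM in the wild-type libraries and 8.68, 3.34 and 1.09 CPM in the knockout libraries. The means were 20.3 ± 10.05 CPM in wild-type and 4.37 ± 3.90 CPM in knockout (SD, n = 3) and the log2 fold change of -2.19 ± 0.71 (edgeR adjusted p = 0.752) was the lowest of the 38 members tested. The groups did not overlap, with wild-type replicate 1 at 9.68 CPM just above knockout replicate 1 at 8.68 CPM, and the estimate ran from -3.39 without knockout replicate 1 to -1.65 without knockout replicate 3.

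Oasl2, its neighbour on chromosome 5, did not share this pattern and stood at 134, 122 and 229 CPM in the wild-type libraries and 188, 148 and 318 CPM in the knockout libraries (log2 fold change 0.45 ± 0.35, edgeR adjusted p = 0.951). Oas1a stood at 46.2, 51.8 and 95.2 CPM in the wild-type libraries and 65.8, 70.9 and 146 CPM in the knockout libraries. Knockout replicate 3 was the highest library for both, and the groups overlapped for both, with a log2 fold change of 0.57 ± 0.42 (edgeR adjusted p = 0.946) for Oas1a. Without knockout replicate 3 the estimates were 0.076 for Oas1a and 0.067 for Oasl2. Reads of Oas1a may be shared with its close copy Oas1g. Oas2 and Oas3, adjacent genes on chromosome 5, ranged from 0 to 32.0 and from 0.0507 to 48.2 CPM in wild-type and from 11.5 to 45.0 and from 20.7 to 57.0 CPM in knockout. They were near 0 in different wild-type libraries. Their log2 fold changes with all libraries were 0.94 ± 0.84 for Oas2 and 1.10 ± 0.93 for Oas3 (edgeR adjusted p = 0.963 for both).

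The 3 enzymes that act on nucleotides or RNA had log2 fold changes between -0.15 and 0.26. Rsad2 encodes viperin, which makes a chain-terminating nucleotide, and stood at 18.1, 18.1 and 51.5 CPM in the wild-type libraries and 54.3, 17.1 and 24.9 CPM in the knockout libraries (log2 fold change 0.20 ± 0.59, edgeR adjusted p = 0.989). Samhd1, a dNTP hydrolase, stood at 99.9, 131 and 203 CPM in the wild-type libraries and 176, 105 and 108 CPM in the knockout libraries (log2 fold change -0.15 ± 0.32, edgeR adjusted p = 0.986). Isg20, an RNA exonuclease, stood at 49.0, 72.0 and 80.7 CPM in the wild-type libraries and 87.1, 71.6 and 82.1 CPM in the knockout libraries (log2 fold change 0.26 ± 0.25, edgeR adjusted p = 0.965). In all 3 genes the genotypes overlapped.

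The interferon-inducible GTPases divided evenly, with 3 tested members higher and 3 lower in knockout and a median log2 fold change of 0.03. Gbp2, a guanylate-binding protein that attacks pathogen vacuoles, stood at 71.8, 76.3 and 113 CPM in the wild-type libraries and 159.9, 129 and 145 CPM in the knockout libraries. All 3 knockout libraries lay above all wild-type libraries, the means were 87.1 ± 22.7 CPM in wild-type and 144 ± 15.5 CPM in knockout (SD, n = 3) and the log2 fold change was 0.74 ± 0.23 (edgeR adjusted p = 0.752), between 0.62 and 0.97 when single libraries were left out. Irgm1, an immunity-related GTPase known to restrain interferon-driven stem cell proliferation, stood at 261, 266 and 429.5 CPM in the wild-type libraries and 186, 192 and 226 CPM in the knockout libraries. All 3 knockout libraries lay below all wild-type libraries, the means were 319 ± 95.7 CPM in wild-type and 201 ± 22.0 CPM in knockout (SD, n = 3) and the log2 fold change was -0.66 ± 0.22 (edgeR adjusted p = 0.781). Its estimate was -0.39 without wild-type replicate 3, the library that held 429.5 CPM.

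Gbp2 and Irgm1 thus lay in opposite directions, each with an unadjusted edgeR p under 0.05 (0.0131 and 0.0197). Iigp1, a GTPase of the same immunity-related family as Irgm1, stood at 64.1, 115 and 73.8 CPM in the wild-type libraries and 80.8, 88.1 and 129 CPM in the knockout libraries (log2 fold change 0.24 ± 0.30, edgeR adjusted p = 0.971). Gbp3, Gbp7 and Igtp averaged 57.2, 199 and 108 CPM in wild-type and 64.6, 193 and 103 CPM in knockout, with log2 fold changes of 0.11, -0.05 and -0.07. Igtp and the Gbp genes have close copies, and Igtp overlaps Irgm2 on the same strand, so their counts could have been exchanged. Mx1, the antiviral GTPase that is disrupted in many laboratory strains, had 35 counts in wild-type replicate 1, 223 in wild-type replicate 2 and 0 in the other libraries. Mx2 had 27 counts in knockout replicate 3 and 0 elsewhere. Neither gene passed the filter. Wild-type replicate 2 is the library with the neutrophil markers, and their part in the Mx1 counts was not tested.

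Stat2, the ISGF3 subunit that is itself interferon-inducible, stood at 26.8, 14.5 and 34.1 CPM in the wild-type libraries and 26.5, 35.4 and 53.3 CPM in the knockout libraries (log2 fold change 0.63 ± 0.44, edgeR adjusted p = 0.939). Its groups overlapped. Sp100, a nuclear body protein that restricts viral transcription, stood at 139.9, 145 and 125 CPM in the wild-type libraries and 171, 209 and 219 CPM in the knockout libraries. All 3 knockout libraries lay above all wild-type libraries and the wild-type SD was small, with means of 136 ± 10.4 CPM in wild-type and 199.8 ± 25.6 CPM in knockout (SD, n = 3) and a log2 fold change of 0.55 ± 0.17 (edgeR adjusted p = 0.744). It had the smallest unadjusted edgeR p of the members (0.0119) and a log2 fold change of 0.47 to 0.65 when single libraries were left out.

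Parp14, an ADP-ribosyltransferase, stood at 0, 4.17 and 2.79 CPM in the wild-type libraries and 6.49, 5.08 and 18.8 CPM in the knockout libraries. The groups did not overlap, and the log2 fold change of 2.14 ± 0.89 (edgeR adjusted p = 0.841) rests on counts of 0 to 86 in wild-type. It was 1.29 without knockout replicate 3, which held 416 counts. Dtx3l and Parp9, partners in a ubiquitin ligase complex, are encoded next to Parp14 on chromosome 16 and overlap each other on opposite strands. They averaged 53.7 and 61.6 CPM in wild-type and 42.7 and 55.3 CPM in knockout, so that the fitted values of the 3 neighbours did not share a direction. Dtx3l was at 5.07 CPM in knockout replicate 3 and at 42.2 to 75.4 CPM in the other 5 libraries, and Parp9 at 14.8 CPM in wild-type replicate 3 and 29.9 to 97.3 CPM elsewhere. Trim30a, a ubiquitin ligase that damps Toll-like receptor signalling, averaged 76.2 ± 16.1 and 78.4 ± 42.0 CPM (SD, n = 3).

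Among the other effectors, Rtp4, an interferon-induced regulator that binds TBK1, stood at 52.5, 67.3 and 96.1 CPM in the wild-type libraries and 110.3, 82.1 and 147 CPM in the knockout libraries. Only knockout replicate 2 lay below a wild-type library, and the log2 fold change was 0.67 ± 0.31 (edgeR adjusted p = 0.866). Lgals3bp, a secreted galectin-binding glycoprotein, stood at 390.3, 506 and 671 CPM in the wild-type libraries and 587, 587 and 743 CPM in the knockout libraries (log2 fold change 0.29 ± 0.20, edgeR adjusted p = 0.939). Ifi44 was the effector with the lower value in knockout, at 138, 115 and 200.4 CPM in the wild-type libraries and 138, 132 and 123 CPM in the knockout libraries (log2 fold change -0.21 ± 0.23, edgeR adjusted p = 0.971). The 2 remaining effectors, Xaf1, a pro-apoptotic protein, and Ifi35, averaged 67.5 and 90.1 CPM in wild-type and 77.4 and 111 CPM in knockout. Both were lowest in wild-type replicate 1, at 38.6 and 46.2 CPM, and their 5 other libraries lay between 70.8 and 131 CPM.

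Genes upstream of the members were read within a list of 106 further interferon pathway genes, of which 84 were tested. That list also held ISG15-conjugating enzymes and 56 other interferon-stimulated genes (49 tested), among them Gbp4. Its pooled counts are therefore not counts of upstream genes alone. None passed an adjusted p of 0.05 in edgeR (background 0.0%), and 46 had the higher value in knockout. At an unadjusted edgeR p under 0.05 there were 8 (9.52%) against 5.82% of all genes tested, 4 higher (background 3.47%) and 4 lower (background 2.35%). The genotypes did not overlap for 9 of the 84 (10.7%), near the 10.3% of all genes tested. DESeq2 called 3 of the 86 pathway genes for which it gave an adjusted p (background 0.934%), namely Irf1, Tank and Gbp4. Gbp4, a guanylate-binding protein named here after its values were seen, had 0, 1 and 0 counts in the wild-type libraries and 10, 241 and 214 in the knockout libraries, did not pass edgeR's filter and had a DESeq2 adjusted p of 0.00154. Of 10 interferon genes, 9, including Ifnb1 and Ifng, had 0 counts in all 6 libraries. By counting error alone, that allows up to 0.134 to 0.207 CPM per library. Ifnk was counted in wild-type replicate 1, at 1.35 CPM. The 5 receptor genes tested divided into 3 higher and 2 lower. Ifngr2, the signalling chain of the interferon gamma receptor, stood at 26.0, 24.3 and 22.8 CPM in the wild-type libraries and 51.02, 46.1 and 31.3 CPM in the knockout libraries, without overlap (log2 fold change 0.81 ± 0.34, edgeR adjusted p = 0.851). Ifnar1, a chain of the type I receptor, stood at 80.0, 98.3 and 18.4 CPM in the wild-type libraries and 131, 110.0 and 99.2 CPM in the knockout libraries. It too did not overlap, its log2 fold change was 0.80 ± 0.47 (edgeR adjusted p = 0.911), and it was 0.35 without wild-type replicate 3, which held 18.4 CPM, and 1.24 without wild-type replicate 2.

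Irf9, the DNA-binding subunit of ISGF3, averaged 162 ± 72.7 CPM in wild-type and 139.5 ± 34.7 CPM in knockout (SD, n = 3), with overlapping groups. Jak1 and Tyk2, the kinases of the type I receptor, had log2 fold changes of -0.21 ± 0.13 (edgeR adjusted p = 0.922) and -0.51 ± 0.33 (edgeR adjusted p = 0.923). With wild-type replicate 2 and knockout replicate 3 both left out, they were -0.19 and -0.13. Among the interferon regulatory factors, Irf1, a transcription factor that drives GTPase and other interferon-gamma targets, stood at 242, 247 and 303 CPM in the wild-type libraries and 171, 103 and 79.6 CPM in the knockout libraries. All knockout libraries lay below all wild-type libraries, with means of 264 ± 34.1 CPM in wild-type and 118 ± 47.5 CPM in knockout (SD, n = 3) and a log2 fold change of -1.15 ± 0.28 (edgeR adjusted p = 0.739). DESeq2 gave it an adjusted p of 0.0288, and the estimate was -0.92 without knockout replicate 3. Irf7, the factor that amplifies type I interferon production, stood at 23.9, 33.4 and 70.3 CPM in the wild-type libraries and 41.2, 25.7 and 96.6 CPM in the knockout libraries (log2 fold change 0.41 ± 0.57, edgeR adjusted p = 0.976). Its order of libraries, highest in knockout replicate 3 and wild-type replicate 3 and lowest in wild-type replicate 1, was that of many members.

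**Figure D5:**
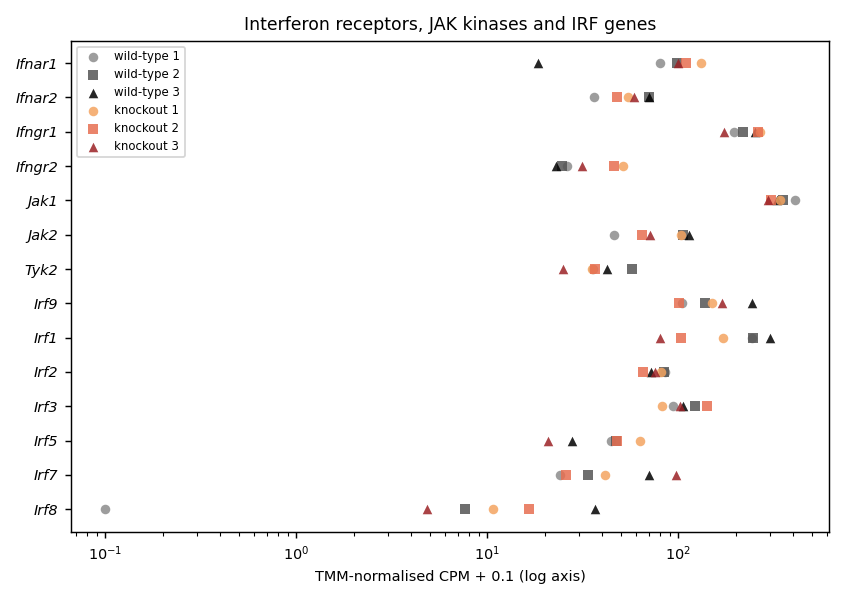
TMM-normalised CPM plus 0.1 on a log axis of interferon receptor, JAK kinase and interferon regulatory factor genes in each library. Irf1 lies lower in all 3 knockout libraries (79.6 to 171 CPM) than in wild-type (242 to 303 CPM), while Irf9 and Irf7 overlap.

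Tank, an adaptor of the kinases TBK1 and IKKε, stood at 97.8, 119 and 119.8 CPM in the wild-type libraries and 56.6, 59.9 and 64.6 CPM in the knockout libraries, and Tbk1 at 137, 148 and 153 CPM in the wild-type libraries and 93.5, 72.9 and 127 CPM in the knockout libraries. Neither overlapped between genotypes. Their log2 fold changes were -0.90 ± 0.21 (edgeR adjusted p = 0.739) and -0.55 ± 0.22 (edgeR adjusted p = 0.841), and DESeq2 gave Tank an adjusted p of 1.17e-04. Among negative regulators, Ptpn2, a phosphatase of JAK and STAT proteins, averaged 179 ± 9.06 CPM in wild-type and 132 ± 23.8 CPM in knockout (SD, n = 3), without overlap (log2 fold change -0.42 ± 0.18, edgeR adjusted p = 0.857). Socs1, a feedback inhibitor of JAK kinases, averaged 10.4 ± 4.92 CPM in wild-type and 18.2 ± 5.44 CPM in knockout (SD, n = 3) (log2 fold change 0.83 ± 0.52, edgeR adjusted p = 0.922). The ISG15-conjugating ligases Herc6 and Trim25 had log2 fold changes of 0.62 ± 0.47 (edgeR adjusted p = 0.949) and 0.53 ± 0.39 (edgeR adjusted p = 0.944). With wild-type replicate 2 and knockout replicate 3 both left out, they were 0.79 and 0.26.

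Among the 106 pathway genes were 56 other interferon-stimulated genes, of which 49 were tested. These had 30 higher and 19 lower values in knockout. Their median log2 fold change was 0.07, against 0.29 for the 38 members. The genotypes did not overlap for 3 of these 49 (6.12%), against 10.3% of all genes tested. Oas1g, the close copy of Oas1a, stood at 10.5, 6.16 and 16.3 CPM in the wild-type libraries and 22.1, 24.2 and 31.2 CPM in the knockout libraries, without overlap (log2 fold change 1.25 ± 0.46, edgeR adjusted p = 0.837). Its estimate was 0.76 with wild-type replicate 2 and knockout replicate 3 both left out. Ly6a, which encodes the sort marker Sca-1 and is interferon-inducible, stood at 131, 138 and 169 CPM in the wild-type libraries and 175, 217 and 215 CPM in the knockout libraries, again without overlap (log2 fold change 0.46 ± 0.17, edgeR adjusted p = 0.837). Since the sort gated on Sca-1, Ly6a was read only in cells that carried it.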

How the data were processed

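RNA-seq counts of 6 libraries, 3 per genotype, were analysed as raw read counts per gene in the authors' deposited table. Trimmomatic 0.39, HISAT2 2.2.1, Picard 2.26.1, HTSeq 1.99.2, DESeq2 1.38.3 and build mm39 are named per the submitters' processing notes. The labels and notes state neither the annotation release nor the strand setting. Reads of overlapping genes and close copies could have been exchanged. Without molecular identifiers, amplified reads do not count single molecules. The design text names 3 mice per genotype, and groups followed the labels.

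Genes were tested with edgeR 4.0.16 in R 4.3.3 by the quasi-likelihood test on the deposited counts, with filterByExpr (minimum count 10, minimum total 15), TMM factors and Benjamini-Hochberg adjustment over all 14592 genes. SE is the fold change divided by the square root of the F statistic. Mean log2 CPM used a prior count of 2. DESeq2 1.42.0 and limma 3.58.1 (voom with sample weights), other scalings and filters, a replicate term and single libraries left out were alternatives. Levels per kilobase used exon lengths from GENCODE M21 (GRCm38), another build than the counts. Promoter sequences came from RefSeq (GRCm38.p6).

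The members and gene lists were chosen with earlier results of these data known. Every member is named. Full values are given, per role, for the 3 with the smallest p, the one with the highest wild-type level and any without overlap between genotypes, and for pathway lists the 2 with the smallest p.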

Additional observations from a re-analysis of the deposited data

How the results depend on the processing

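A total of 17 alternatives were run, and no member was called in any of them. No gene of all tested was called except in DESeq2, which called 154. Leaving out single libraries gave 0 genes and 0 members called throughout, 26 to 32 members with the higher value in knockout and a median log2 fold change of 0.15 to 0.47. With wild-type replicate 2 (neutrophil markers) and knockout replicate 3 (female markers) both left out, an alternative chosen after seeing the data, 25 of 38 members had the higher value and the median was 0.14. A term for the female library gave 28 and 0.18. As that library is knockout replicate 3 alone, the term amounts to leaving it out (median 0.17) and cannot adjust for sex.

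Pairing by replicate number was not detected. The correlations of same-numbered deviations were 0.06, -0.04 and 0.01, and those of other pairs ran from -0.05 to 0.04. Such small values from few libraries cannot show that pairing was absent. A replicate block gave 0 genes and 0 members called, 29 members with the higher value and a median of 0.33, and turned the direction of Igtp (0.014) and Trim30a (-0.0062).

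Of the 38 members, 19 kept their direction under every alternative run and 19 changed it at least once. The cause was not tested. With both libraries left out the log2 fold change became -0.10 for Ifit2, -0.30 for Usp18, -0.11 for Adar, -0.071 for Oas1a, -0.11 for Oasl2, 0.26 for Igtp, -0.019 for Stat2, 0.047 for Parp9, 0.10 for Dtx3l, -0.64 for Trim30a and, among pathway genes, -0.47 for Irf7. With the female term it was -0.33 for Usp18, 0.055 for Gbp7, -0.014 for Iigp1, 0.25 for Dtx3l, -0.51 for Trim30a and -0.31 for Irf7. In limma-voom it was 0.38 for Ifit3, 0.057 for Gbp7 and -0.034 for Trim30a. When single libraries were left out, the estimates ran from -0.80 to 0.71 for Ifit3, -0.32 to 0.87 for Usp18, -0.44 to 0.89 for Rsad2, -0.45 to 0.18 for Samhd1, -0.26 to 0.37 for Gbp3, -0.17 to 0.20 for Gbp7, -0.38 to 0.34 for Igtp, -0.011 to 0.53 for Iigp1, -0.64 to 0.35 for Parp9, -1.22 to 0.25 for Dtx3l, -0.50 to 0.34 for Trim30a, -0.084 to 0.47 for Xaf1, -0.38 to 0.052 for Ifi44, -0.014 to 0.49 for Ifi35 and -0.31 to 0.97 for Irf7.

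By counting error alone, a count of 0 allows at most 0.207 CPM in any library (3 counts). The 50 cells per library limit how well a gene at a few CPM is sampled. With at least 5 counts in place of 1, the members counted per library numbered 36 to 39 in place of 37 to 39.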
